A study of Danio rerio with 18 samples.

Results

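The genes described here are transcription factors that build the retina and mark its cell types: rx1, rx2, vsx1, both copies of pax6 (pax6a and pax6b), six3b, six6a, prox1a and isl1. They were chosen by name, as factors of retinal progenitors and of bipolar, amacrine, horizontal, ganglion and Müller cells, and the rule uses no measured value. Of the 9 genes, 7 have rows of their own in a count table of 31624 Ensembl genes. For six3b and six6a the sources used here name 2 candidate rows each, so that 11 rows were looked at.

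Adult Tübingen zebrafish of about 1.5 years were compared, which were wild-type or carried homozygous frameshift deletions in the melanopsin genes opn4.1 and opn4xb in every cell of the body (opn4 dko). Melanopsins are opsin photopigments that in fish are found in many retinal neurons and in the brain. Eyes, anterior brains (telencephalon, pineal and parts of the epithalamus and thalamus) and posterior brains (midbrain, hindbrain, hypothalamus and the other remaining parts, with olfactory bulbs and pituitary left out) gave 3 biological replicates for each genotype, and each replicate pooled that tissue from 3 fish. All fish had lived under a blue light-dark cycle and were sampled in its light phase, so no group in darkness or white light enters these comparisons. Polyadenylated RNA was sequenced, and the deposited values are raw read counts per gene.

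Eye development rests on a small set of homeobox factors. Rx, six3, six6 and pax6 proteins specify the eye field in the forebrain and keep retinal progenitors dividing, and several of them are used again when neurons are made. In the differentiated retina vsx1 marks bipolar cells, pax6 amacrine and ganglion cells, prox1 horizontal cells, and isl1 ganglion cells and subsets of bipolar and amacrine cells. In zebrafish rx1 and rx2 are also expressed in photoreceptors. Outside the eye, pax6, prox1, six3 and isl1 act in the forebrain, the midbrain and the hindbrain, while rx1, rx2 and vsx1 are known mainly from the retina.

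Library totals ran from 2186877 to 6946549 counts, so that 3 counts corresponded to 0.419 to 1.47 CPM (counts over the TMM-scaled library size of all 18 libraries, in the usual CPM unit). All eye libraries were sequenced on a flow cell lane of their own, lane 7, and the tissue and the lane cannot be told apart in comparisons of eye with brain. Replicate 1 of both brain parts shared lane 6, and both genotypes were split over lanes in the same way. Rod and telencephalic markers fitted the labels: the summed CPM of 3 rod genes was 5130 to 7460 in eyes, and that of 3 telencephalic genes was 518 to 648 in anterior brains and at most 28.4 elsewhere. The sum of 3 midbrain and hindbrain genes was 35.3 to 69.7 in posterior brains and at most 1.81 in anterior brains. At 16.4 to 47.0 in eyes, it did not separate eyes from posterior brains. The sum of 4 hypothalamic genes was 52.3 to 480 CPM in anterior and 337 to 1030 in posterior brains, so it did not separate the brain parts. Although the pituitary was left out, 3 genes of the pituitary list (gh1, prl and pomca) summed to 6.50 to 34.7 CPM in posterior brains. In opn4 dko posterior brains gh1 was at 0. The same sum reached 9.99 CPM in eyes and 8.13 in anterior brains, so it did not separate the tissues. The source of these reads was not tested. The targeted genes could still be counted, since their deletions are small. In the eye, opn4.1 stood at 349 to 597 CPM in wild-type and 341 to 513 in opn4 dko, and opn4xb at 15.3 to 27.9 and 8.16 to 9.45.

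The table does not measure cells, and in bulk tissue fewer cells of a type and less RNA per cell cannot be told apart. Reads were counted over whole gene bodies, whose lengths were not used here, so levels are compared between tissues and genotypes for the same gene and not between genes. Reads with a mapping quality under 20 had been left out, which removes reads that fit equally well to related genes. How many reads of rx1, rx2 or of the pax6 and six3 copies were lost in this way is not known.

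Of the retinal homeobox genes, rx1 (ENSDARG00000071684) was an eye gene in these libraries. Its eye level was 319, 195 and 254 CPM in the wild-type replicates and 480, 217 and 286 CPM in the opn4 dko replicates. The opn4 dko replicate 1 stood highest, and the genotypes overlapped. In the anterior brain its counts were 0, 9 and 0 for wild-type libraries, and 8, 6 and 0 for opn4 dko, so that 3 of 6 libraries held no read. None of the 6 posterior brain libraries held a read of rx1. The eye was at least 360-fold higher than the posterior brain in wild-type and at least 498-fold higher in opn4 dko, with each posterior library set to a floor of 3 counts. Against the anterior brain the fitted log2 fold change of rx1 was 8.76 in wild-type and 8.55 in opn4 dko. With each library left out it ran from 8.28 to 13.1 in wild-type and from 8.07 to 8.90 in opn4 dko. The row passed the filter on low counts only through the eye, so no FDR is given for it. All wild-type reads in the anterior brain came from replicate 2. Without it no read was left and the eye was at least 384-fold higher.

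The related gene rx2 (ENSDARG00000040321) was found in the eye and, but for 1 read, nowhere else. Eye levels were 85.0, 88.9 and 116 CPM in wild-type and 136, 40.3 and 55.6 CPM in opn4 dko. The opn4 dko libraries thus held both the highest and the lowest values, and replicate 1, which was highest for rx1, was also highest for rx2. The anterior brain libraries held no read of rx2, and the posterior brain libraries held 1 read, in opn4 dko replicate 1. The eye was at least 162-fold higher than the anterior brain in wild-type and 134-fold in opn4 dko, and at least 136-fold and 118-fold higher than the posterior brain. Without opn4 dko replicate 1 of the eye the opn4 dko bounds were 83.0-fold and 72.9-fold. Reads of rx1 over reads of rx2 came to 3.75, 2.20 and 2.19 in the wild-type eyes and 3.53, 5.38 and 5.13 in the opn4 dko eyes, and these ranges overlapped.

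The gene vsx1 (ENSDARG00000056292), a homeobox factor of bipolar cells, was the steadiest of the eye-restricted genes. Its levels were 130, 159 and 164 CPM in wild-type eyes and 130, 110 and 138 CPM in opn4 dko eyes. None of the 12 brain libraries held a read of vsx1. The eye was at least 253-fold and 218-fold higher than the anterior brain in wild-type and opn4 dko, and at least 212-fold and 191-fold higher than the posterior brain. The standard deviation of vsx1 in the eye was 12.4% of the mean in wild-type and 11.6% in opn4 dko, against 17.4% and 66.6% for rx2 (n = 3 pools each).

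**Figure D1:**
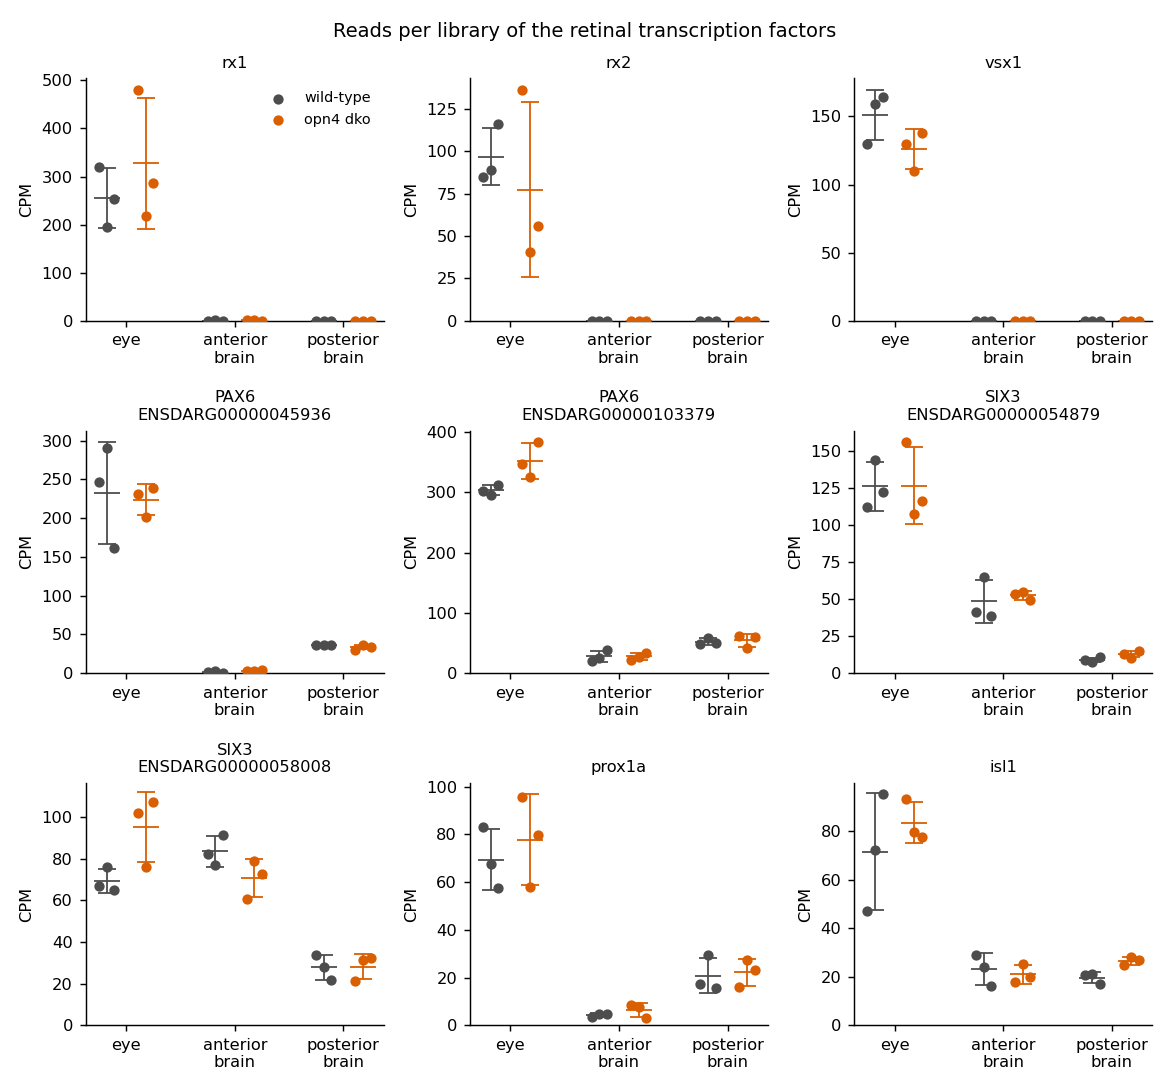
Level of each gene in CPM (y axis, linear, from 0) in the eye, anterior brain and posterior brain (x axis), with a point for each library and a bar with whiskers for the mean and SD of the 3 libraries of a genotype, wild-type in grey and opn4 dko in orange. The genes rx1, rx2 and vsx1 lie at or near 0 in all brain libraries, whereas SIX3 ENSDARG00000058008 is as high in the anterior brain (60.8 to 91.4 CPM) as in the eye (65.1 to 107 CPM).

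Both pax6 copies encode paired and homeobox factors that are used in the eye, the brain and the pancreas. The table of names gives the family symbol PAX6 to their 2 rows and does not say which row is pax6a and which is pax6b. The rows differed most in the anterior brain. PAX6 ENSDARG00000045936 had 246, 290 and 161 CPM in wild-type eyes and 231, 202 and 239 CPM in opn4 dko eyes. Its posterior brain level was 36.3, 35.7 and 36.1 CPM in wild-type and 30.3, 36.1 and 34.2 CPM in opn4 dko. In the anterior brain it fell to 8, 18 and 3 counts in wild-type and 16, 12 and 18 counts in opn4 dko, which is 0.656 to 3.95 CPM. Every eye library lay above every posterior library, and every posterior library above every anterior library. The log2 fold change between the anterior and posterior brain was -4.28 in wild-type (standard error 0.32, FDR = 2.41e-09) and -3.53 in opn4 dko (standard error 0.30, FDR = 1.89e-08, edgeR quasi-likelihood F-test with Benjamini-Hochberg adjustment over all genes). Within lane 6, with 1 library for each group, it was -4.00 and -3.50 (CPM plus 0.5).

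The other row, PAX6 ENSDARG00000103379, was more even between the brain parts. Its eye level was 303, 295 and 312 CPM in wild-type and 347, 326 and 384 CPM in opn4 dko. Anterior brain levels were 20.3, 25.4 and 38.2 CPM in wild-type and 22.2, 27.4 and 33.8 CPM in opn4 dko. Posterior brain levels were 49.1, 58.4 and 49.6 CPM in wild-type and 61.0, 42.3 and 59.2 CPM in opn4 dko, so that all 6 posterior libraries lay above all 6 anterior libraries. The log2 fold change between the anterior and posterior brain was -0.91 in wild-type (FDR = 0.00405) and -0.97 in opn4 dko (FDR = 0.00199, same test), and within lane 6 it was -1.25 and -1.44. Between eye and anterior brain PAX6 ENSDARG00000045936 differed by a log2 fold change of 6.98 (95% interval 6.30 to 7.66) and PAX6 ENSDARG00000103379 by 3.45 (2.98 to 3.91) in wild-type.

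The balance of the pax6 copies can be read within each library, free of its scaling, as reads of ENSDARG00000103379 over reads of ENSDARG00000045936. In the eye this ratio was 1.02 to 1.93 (median 1.55, n = 6 libraries of both genotypes), and in the posterior brain 1.17 to 2.01 (median 1.50). In the anterior brain it was 8.56 to 58.3 (median 10.2). The ratio differed between the anterior brain and both the eye and the posterior brain (log2 difference of -3.19 for the eye against the anterior brain and 3.12 for the anterior against the posterior brain, two-sided exact permutation test, p = 0.00216 each, adjusted p = 0.00325 over 6 comparisons), with no overlap of libraries. Between eye and posterior brain the log2 difference was -0.07 (p = 0.719, same exact test). The highest anterior value, 58.3, came from wild-type replicate 3 and rests on 3 reads of ENSDARG00000045936, and the other 5 libraries lay between 8.56 and 11.2. This comparison was added after the levels had been seen. It took the libraries of the tissues as independent, although tissues may share fish.

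Six3 acts in the forebrain and the eye field, and its zebrafish copies are six3a and six3b. The sources do not say which of the rows with the symbol SIX3 is six3b, so both are given. SIX3 ENSDARG00000054879 had 112, 144 and 122 CPM in wild-type eyes and 156, 107 and 116 CPM in opn4 dko eyes. Its anterior brain levels were 41.5, 65.0 and 38.7 CPM in wild-type and 53.3, 54.7 and 49.2 CPM in opn4 dko. In the posterior brain it stood at 8.74, 7.45 and 10.6 CPM and at 13.0, 10.5 and 14.8 CPM. The order of tissues was thus eye, anterior brain, posterior brain, with no overlap between neighbours. The log2 fold change of the eye over the anterior brain was 1.39 in wild-type (FDR = 2.74e-05) and 1.27 in opn4 dko (FDR = 7.19e-05), and that of the anterior over the posterior brain 2.45 (FDR = 3.03e-07) and 2.03 (FDR = 2.35e-06, edgeR quasi-likelihood F-test).

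SIX3 ENSDARG00000058008 was the only row here that was not higher in the eye than in the anterior brain by the test. Eye levels were 66.7, 76.0 and 65.1 CPM in wild-type and 102, 75.9 and 107 CPM in opn4 dko, and anterior brain levels were 82.1, 76.9 and 91.4 CPM and 60.8, 78.8 and 72.7 CPM. In wild-type every anterior library lay above every eye library, while in opn4 dko the tissues overlapped. The log2 fold change of the eye over the anterior brain was -0.26 in wild-type (95% interval -0.71 to 0.19, FDR = 0.357) and 0.43 in opn4 dko (95% interval -0.02 to 0.88, FDR = 0.121, edgeR quasi-likelihood F-test). The posterior brain was lowest, with 33.9, 27.9 and 21.6 CPM in wild-type and 21.1, 31.5 and 32.1 CPM in opn4 dko. Within lane 6 the anterior brain exceeded the posterior brain by log2 1.26 and 1.50 for this row and by 2.18 and 1.99 for SIX3 ENSDARG00000054879.

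Reads of SIX3 ENSDARG00000054879 over reads of SIX3 ENSDARG00000058008 came to 1.08 to 1.90 in the eye (median 1.61), 0.423 to 0.876 in the anterior brain (median 0.686) and 0.258 to 0.615 in the posterior brain (median 0.397, n = 6 libraries each). The eye differed from the anterior brain by 1.26 on the log2 scale and from the posterior brain by 2.02 (two-sided exact permutation test, p = 0.00216 each, adjusted p = 0.00325). The brain parts overlapped and differed by 0.76 (p = 0.0216, adjusted p = 0.026, same exact test). In the eye the ratio was 1.69 to 1.90 in wild-type and 1.08 to 1.53 in opn4 dko, which do not overlap. With 3 libraries against 3 an exact permutation test cannot go below p = 0.1, the value found here, and the other 5 comparisons of genotypes for both families overlapped.

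**Figure D2:**
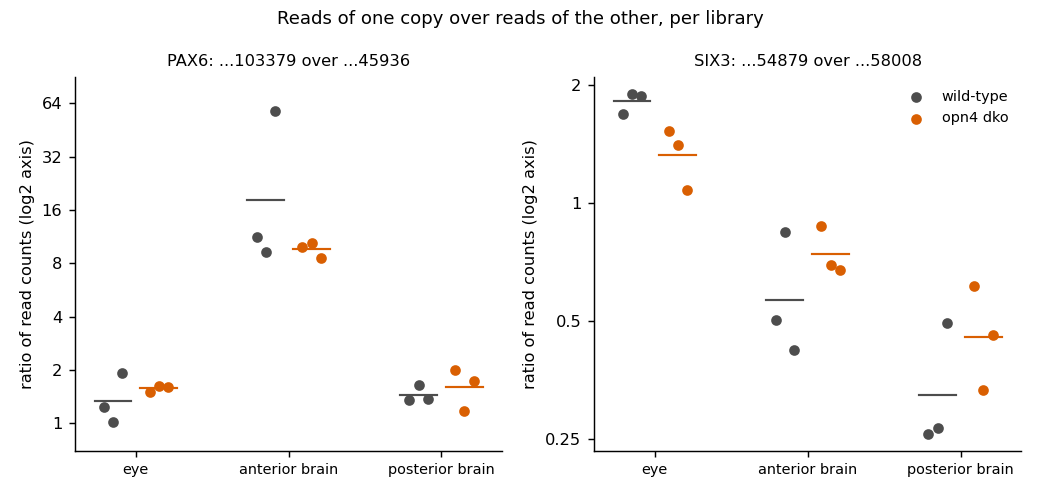
Read count of a pax6 copy over that of the other (left) and the same for the six3 copies (right) on log2 axes, by tissue, with a point for each library and a line at the geometric mean of the 3 libraries of a genotype (wild-type grey, opn4 dko orange; dots in an identifier stand for ENSDARG and zeros). The PAX6 ratio is 8.56 or higher in the anterior brain and at most 2.01 elsewhere, and the SIX3 ratio lies above 1 only in the eye.

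The gene six6a could not be described. Both rows with the symbol SIX6 (ENSDARG00000025187 and ENSDARG00000031316) are listed at 0 in all 18 libraries. The row of sox2, a progenitor factor that is also used by glia throughout the brain, is listed at 0 as well, so a value of 0 in this table does not by itself show that a gene was silent.

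The gene prox1a (ENSDARG00000055158) encodes a homeobox factor of horizontal cells and of lens fibre cells. Its levels were 83.1, 67.4 and 57.7 CPM in wild-type eyes and 95.7, 57.9 and 79.8 CPM in opn4 dko eyes. The posterior brain followed with 17.5, 29.3 and 15.7 CPM in wild-type and 16.2, 27.2 and 23.2 CPM in opn4 dko. The anterior brain was lowest with 3.38, 4.74 and 4.81 CPM in wild-type and 8.37, 7.66 and 3.07 CPM in opn4 dko. No tissue overlapped with its neighbour. The eye exceeded the posterior brain by a log2 fold change of 1.73 in wild-type (FDR = 2.26e-04) and 1.82 in opn4 dko (FDR = 1.29e-04), and the anterior brain lay below the posterior brain by -2.27 (FDR = 1.17e-04) and -1.77 (FDR = 9.51e-04, edgeR quasi-likelihood F-test). Within lane 6 the latter values were -2.21 and -0.92. Lens genes moved with the eye too: 2 of them, cryaa and bfsp2, summed to 2930 to 4460 CPM in the eye and at most 4.61 CPM in the brain. The part of the lens in the eye level of prox1a or pax6 was not tested.

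The gene isl1 (ENSDARG00000004023) encodes a LIM homeobox factor of retinal ganglion cells and of motor and other cholinergic neurons. Eye levels were 47.0, 72.2 and 95.4 CPM in wild-type and 93.0, 79.4 and 77.6 CPM in opn4 dko. Anterior brain levels were 29.1, 24.2 and 16.4 CPM in wild-type and 18, 25.4 and 19.8 CPM in opn4 dko, and posterior brain levels were 20.8, 21.0 and 17.1 CPM and 24.7, 28.0 and 27.1 CPM. The eye lay above both brain parts in every library, and the brain parts overlapped. The eye was higher than the anterior brain by a log2 fold change of 1.62 in wild-type (FDR = 3.69e-05) and 2.00 in opn4 dko (FDR = 2.53e-06), whereas the brain parts differed by 0.24 (95% interval -0.33 to 0.81, FDR = 0.655) and -0.34 (95% interval -0.90 to 0.22, FDR = 0.465, edgeR quasi-likelihood F-test).

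**Figure D3:**
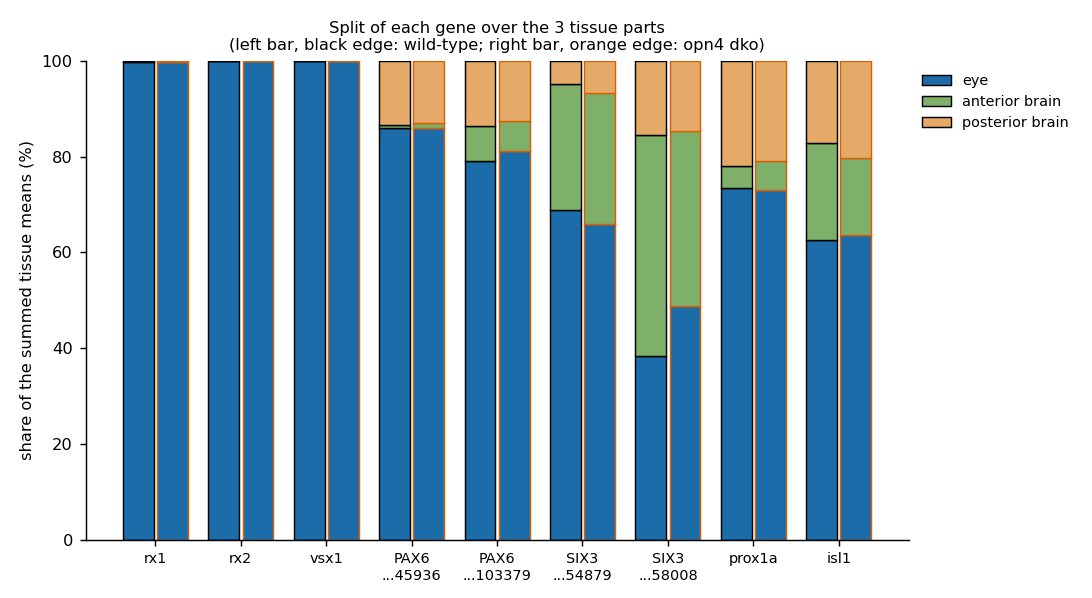
Share of each gene's 3 tissue means, summed to 100%, that falls to the eye, the anterior brain and the posterior brain (y axis, percent), for wild-type (left bar, black edge) and opn4 dko (right bar, orange edge), from means of 3 libraries in CPM. The eye share is above 99% for rx1, rx2 and vsx1, and it is 38.4% in wild-type and 48.9% in opn4 dko for SIX3 ENSDARG00000058008.

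Set side by side, the 4 certain rows with reads in all 18 libraries (both pax6 rows, prox1a and isl1) were higher in the eye than in either brain part, in both genotypes (edgeR quasi-likelihood F-test, FDR of 0.05). The other 3, rx1, rx2 and vsx1, were called in the same direction, but they held 0 to 9 reads in each brain library and passed the filter on low counts only through the eye, so they are not counted beside the background. Of the 7 rows, 3 had at least 10 counts in every library. Over all 18630 genes tested, 22.3% were higher in the eye than in the anterior brain in wild-type and 20.9% in opn4 dko, and 20.6% and 19.7% were higher in the eye than in the posterior brain. Between the brain parts both pax6 rows and prox1a were lower in the anterior brain in each genotype and isl1 was not called, while rx1, rx2 and vsx1 had too few reads there to be compared. Both SIX3 rows were called in the opposite direction. The background was 7.97% of genes lower and 7.80% higher in the anterior brain in wild-type, and 7.94% lower and 9.02% higher in opn4 dko. As shares of the 3 tissue means in wild-type, the eye held 99.8% of rx1, 100.0% of rx2 and vsx1, 86% and 79.1% of the PAX6 rows, 73.4% of prox1a, 68.8% and 38.4% of the SIX3 rows and 62.5% of isl1.

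The second question was whether loss of the melanopsins changed these factors. In the eye, 0 of the 7 rows passed the cutoff, where 0.0254% of all 15773 genes tested did. None had an unadjusted p under 0.05, beside 675 of the 15773 genes, so with 7 rows this says little. DESeq2 and the edgeR exact test also called 0. Log2 fold changes of opn4 dko over wild-type, from a fit of the tissue's 6 libraries, ran from -0.36 for rx2 (95% interval -1.21 to 0.48, FDR = 0.993) to 0.32 for rx1 (95% interval -0.30 to 0.93, FDR = 0.993) among these rows. Without opn4 dko replicate 1 the value was -0.04 for rx1 and -1.03 for rx2, and neither was called. For vsx1 it was -0.29 (95% interval -0.72 to 0.14, FDR = 0.993). The narrowest interval was that of PAX6 ENSDARG00000103379, at 0.19 (95% interval -0.17 to 0.54, FDR = 0.993). SIX3 ENSDARG00000058008, a candidate row for six3b, had the largest value in the eye, at 0.42 (95% interval -0.05 to 0.90, FDR = 0.993, same edgeR test).

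In the anterior brain 4 of the 7 rows had enough reads to be tested and 0 passed the cutoff, against 1.05% of 15341 genes. The posterior brain gave the same counts, 4 tested and 0 called, against 0.357% of 15417 genes. In both parts none of the 4 rows had an unadjusted p under 0.05, beside 1386 genes in the anterior and 1502 in the posterior brain. With 4 rows this says little. DESeq2 and the edgeR exact test called 0 in both parts. In the anterior brain the log2 fold changes were 0.71 for PAX6 ENSDARG00000045936 (95% interval -1.01 to 2.43), 0.56 for prox1a (95% interval -0.63 to 1.74), -0.15 for isl1 (95% interval -0.73 to 0.43) and -0.02 for PAX6 ENSDARG00000103379 (95% interval -0.59 to 0.54). The libraries held 3 to 18 reads of the first of these and 14 to 60 reads of prox1a. The prox1a difference was 1.19 within lane 6 and 0.15 within lane 5. In the posterior brain isl1 had the largest value, 0.43 (95% interval -0.13 to 1.00, FDR = 0.648), and the other 3 rows lay between -0.11 and 0.08. Both SIX3 rows were tested in all tissues and were not called, and their largest value was 0.52 for SIX3 ENSDARG00000054879 in the posterior brain (95% interval -0.32 to 1.35).

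**Figure D4:**
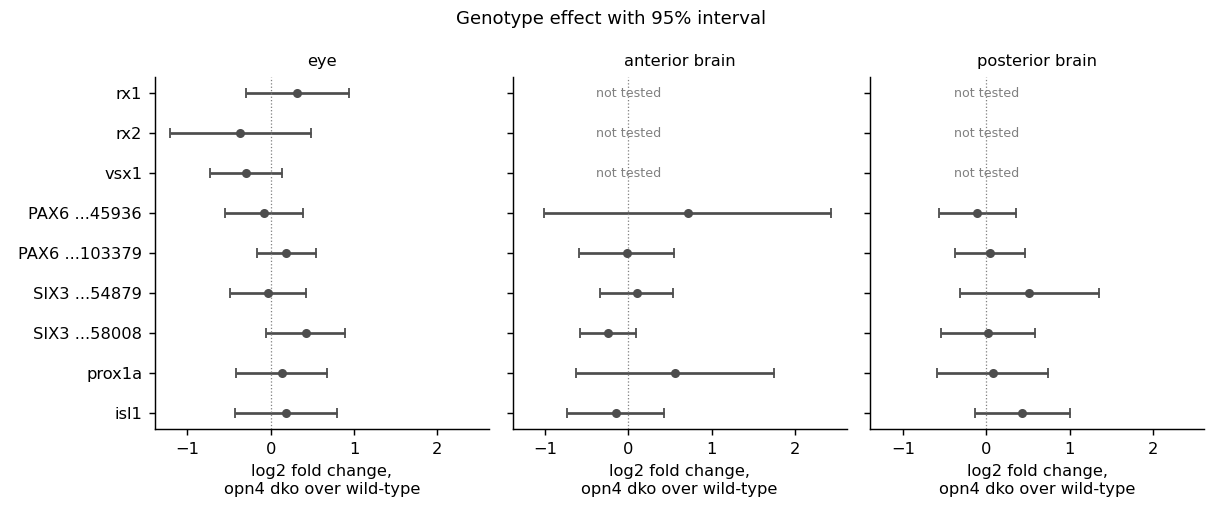
Log2 fold change of opn4 dko over wild-type (x axis) with its 95% interval for each row (y axis) in the eye, anterior brain and posterior brain, from a fit of 3 against 3 libraries in each tissue; rows with too few reads are marked as not tested. All 21 intervals include 0, and the widest, for PAX6 ENSDARG00000045936 in the anterior brain, reaches from -1.01 to 2.43.

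The levels of the genotypes did not overlap for 1 of 9 rows in the eye (PAX6 ENSDARG00000103379, 295 to 312 CPM in wild-type and 326 to 384 in opn4 dko) beside 12.8% of all genes, for 0 of 6 rows in the anterior brain beside 14.6%, and for 1 of 6 rows in the posterior brain (isl1, 17.1 to 21.0 and 24.7 to 28.0 CPM) beside 15.6%. The interaction of genotype and tissue asks whether the genotype effect depends on the tissue, and it was taken from the model of 18 libraries. It was called for none of the certain rows, beside 0.344% of 18630 genes for the eye against the anterior brain, 0% for the eye against the posterior brain and 0.00537% for the brain parts, and DESeq2 also called 0. Only both pax6 rows, prox1a and isl1 had reads in all tissues, and 0 of these 4 had an unadjusted p under 0.05. Over all 18630 genes it was under 0.05 for 1101, 1091 and 559, in the same order of comparisons. For vsx1 and rx2, with at most 1 read in the brain, and for rx1 against the posterior brain the interaction could not be tested. SIX3 ENSDARG00000058008 had a log2 difference of 0.69 for the eye against the anterior brain (standard error 0.31, FDR = 0.805, edgeR quasi-likelihood F-test of the interaction), and was the only row whose unadjusted p was under 0.05.

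Marker genes listed for rods, cones, pineal and pigment epithelium were also read in the brain libraries. The paper reports gnat1 and saga, of the rod list, and rpe65a, of the pigment epithelium list, as expressed in the zebrafish pineal. It also reports them as higher in the opn4 dko anterior brain, the part that holds the pineal. The sums are named after the lists and do not tell which tissue the RNA came from. For the anterior part the summed CPM of the rod genes gnat1, saga and pde6b was 0.656 to 1.13 in wild-type (pde6b at 0) and 103 to 187 in opn4 dko, that of the 3 pineal genes asmt, aanat2 and tph2 was 3.82 to 5.87 and 49.2 to 117, and that of the 3 pigment epithelium genes rpe65a, dct and pmela was 8.25 to 19.2 (pmela at 0) and 58.2 to 129. In the posterior brain the rod sum was 0.173 to 2.31 in wild-type and 3.79 to 62.2 in opn4 dko, the pineal sum 2.60 to 10 and 5.06 to 45.2, and the pigment epithelium sum 3.60 to 10.6 and 2.35 to 33.1, so that the genotypes overlapped for the pineal and pigment epithelium sums. Of the factors, rx2 and vsx1 held no read in the anterior libraries of either genotype, and rx1 held 0 to 9 reads. The 4 bipolar cell genes of these anterior libraries summed to 23.1 to 41.7 CPM in wild-type and 17.3 to 29.2 in opn4 dko. In the posterior brain their sum was lower in opn4 dko without overlap, at 26.5 to 30.0 CPM in wild-type and 17.7 to 22.1 in opn4 dko. Of single genes, 7.93% had all opn4 dko libraries below all wild-type libraries in the posterior brain. Sums of further lists were higher in the opn4 dko anterior brain without overlap, and they are given here for that reason. Of single genes, 7.87% had all opn4 dko libraries above all wild-type libraries in that part. The cone sum was 0.917 to 5.68 CPM in wild-type and 30.3 to 56.5 in opn4 dko, and the ganglion cell sum 21.0 to 24.8 and 27.6 to 32.8. The Müller glia sum was 32.1 to 55.7 and 57.8 to 62.8, and the lens sum at most 0.611 and 0.657 to 4.61. The lens sum lay near the floor, with cryaa at 0 in both genotypes. The paper also lists arr3a, of the cone list, and rlbp1a, of the Müller list, among genes expressed in the pineal. In the eye the rod sum was 5660 to 7460 CPM in wild-type and 5130 to 6600 in opn4 dko. The part of pineal or photoreceptor RNA in the brain levels of the other factors was not tested.

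Other transcription factors of the same retinal cell classes give a frame for these values. Of a list of 45, 39 rows could be named without doubt, of which 2 are listed at 0 in all libraries, and 36 were tested between tissues. In wild-type 21 were higher and 7 lower in the eye than in the anterior brain, 15 higher and 9 lower than in the posterior brain, and 3 higher and 15 lower in the anterior than in the posterior brain. The opn4 dko numbers were 20 and 8, 11 and 9, and 3 and 14. Some of these rows held few brain reads, such as lhx3 with at most 1 and ISL2 ENSDARG00000053499 with at most 5 in a brain library. They passed the filter on low counts only through the eye, so a call of higher in the eye was close to fixed for them. Others held few anterior reads, such as pou4f1 with 0 and pou4f2 with at most 4 in a wild-type anterior library. For such rows a call of lower in the anterior brain was close to fixed. The numbers of rows higher in the eye, also by class, and of rows lower in the anterior brain include such rows. They are no test against the shares over all genes. Over all genes, 21.0% and 19.1% were lower in the eye than in the anterior brain (wild-type and opn4 dko), and 21.1% and 19.1% were lower in the eye than in the posterior brain, beside the shares of higher genes given above. In wild-type the list's median log2 fold change was 2.48 for the eye over the anterior brain and 0.70 over the posterior brain. For the anterior over the posterior brain it was -1.16. Genes at 3 counts or fewer in a tissue were set to their bound, and 5 rows at that floor in both brain parts were left out. In opn4 dko these medians were 2.28, 0.14 and -1.04, with 2 rows left out for the brain parts. Without bounds the wild-type medians were 3.13, 0.70 and -1.39, beside -0.00, -0.03 and 0.00 over all genes, also without bounds. The list medians include rows that passed the filter only through the eye, or not through the anterior brain, and are no test. By class, in wild-type, 7 of 12 progenitor rows were higher in the eye than in the anterior brain and 0 lower, 4 of 5 bipolar rows higher and 1 lower, 4 of 8 amacrine rows higher and 3 lower, 1 of 3 horizontal rows higher and 1 lower, 5 of 5 ganglion rows higher, and 0 of 3 Müller rows higher and 2 lower. Against the posterior brain in wild-type, 2 of the 5 ganglion rows were higher in the eye and 1 lower. Of the progenitor rows 6 of 12 were higher and 0 lower, and of the bipolar rows 4 of 5 higher and 1 lower. Of the amacrine rows 3 of 8 were higher and 2 lower. In the horizontal class 0 of 3 were higher and 2 lower, and in the Müller class 0 of 3 higher and 3 lower. The ganglion cell factor pou4f2 had a mean of 9.86 CPM in the eye, against 0.301 for the anterior and 100 for the posterior brain.

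The factors with the smallest FDR between eye and anterior brain in wild-type were tfap2b and tfap2a, which act in amacrine cells, neurod4, which acts in bipolar and photoreceptor precursors, meis1b and six7. The wild-type anterior libraries held 1, 0 and 0 reads of tfap2b, 1, 19 and 9 of neurod4 and 1, 18 and 1 of six7. With so few reads their FDR cannot be relied on, and the ranking is no test. Posterior libraries held at most 18 reads of neurod4 and 4 of six7, so a call of higher in the eye was close to fixed for both. Mean levels in the eye and the anterior brain were 64.2 and 0.0752 CPM for tfap2b, 212 and 18.1 for tfap2a, 142 and 1.70 for neurod4, 132 and 20.5 for meis1b and 168 and 1.07 for six7. As in the PAX6 row ENSDARG00000045936 and in prox1a, tfap2b and tfap2a were higher in the posterior brain than in the anterior brain, at 87.2 and 91.0 CPM. Genes of the opposite kind were bhlhe22 and bhlhe23, with 307 and 174 CPM in the anterior brain, 53.3 and 48.4 in the eye and 22.9 and 18.7 in the posterior brain. Between genotypes 0 of the list's tested rows were called in any tissue (30 tested in the eye, 18 in the anterior and 26 in the posterior brain). At an unadjusted p under 0.05 there were 0, 0 and 2, the latter being meis2b and SOX9 ENSDARG00000043923 in the posterior brain, which are named here after their values were seen. Over all genes 675 of 15773 were under 0.05 in the eye, 1386 of 15341 in the anterior brain and 1502 of 15417 in the posterior brain. No result is read from these 2 rows.

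The genes whose pattern over the 18 libraries was nearest to each factor were found among 15934 named genes with a mean of at least 10 counts, by the root mean square difference of log2 CPM after each gene was centred on its own mean. For vsx1 they were LCTL, CABP4 and KCNV2, at 0.165, 0.204 and 0.256. LCTL was also second for rx2, at 0.423 after lim2.1 at 0.384, and pde6ha was first for rx1, at 0.620. PAX6 ENSDARG00000045936 had PLCH2 (0.563), and PAX6 ENSDARG00000103379 had MSI1 (0.329). CDHR1 (0.288) came nearest to SIX3 ENSDARG00000054879, and ppp1caa (0.236) to SIX3 ENSDARG00000058008. The nearest genes of prox1a were lrrfip1a (0.462), HMGB2 (0.465) and TFAP2A (0.481), the last of which is on the list above, and that of isl1 was PIM3 (0.275). Among the factors themselves the nearest pair was rx2 and vsx1, at 0.494, followed by PAX6 ENSDARG00000103379 and prox1a at 0.643. The pax6 copies differed by 1.44 and the SIX3 rows by 0.898. For rx1, rx2 and vsx1, with few or no brain reads, log2 CPM in the brain was set mainly by the prior count of 2. Small distances to these genes therefore rest largely on reads that were absent from the same libraries. The points share libraries and depth, and no test was made of these distances.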

How the data were processed

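Reads of 100 bp were mapped and counted by the authors, and the deposited table holds raw read counts of 31624 Ensembl genes (release 86, GRCz10) in 18 libraries, without filter or normalisation. According to the authors' deposited commands, reads were mapped with HISAT, whereas the methods of the paper name NextGenMap, and featureCounts counted whole gene bodies by strand at a mapping quality of at least 20. The submitters' processing notes name featureCounts and edgeR 3.9.

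Symbols were found for 82.7% of identifiers. Genotypes were compared within each tissue with edgeR 4.0.16 in R 4.3.3 (TMM, filterByExpr with minimum count 10 and total 15, prior count 0.125, quasi-likelihood F-test, Benjamini-Hochberg FDR below 0.05 over all genes), and tissues and interactions in a fit of all 18 libraries. The standard error is the absolute log2 fold change over the square root of F. Groups with at most 3 counts in every library were set to 3 counts per library for lower bounds. The procedure was tested on simulated data. Alternatives were the exact test, DESeq2 1.42.0, RLE and actb1 scaling, other filters, other sets of fitted samples, a replicate block and each library left out in turn. The comparison of copy ratios, the values within lanes and the alternatives of bounds were added after seeing the data.

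The named genes are the 9 chosen factors, at most 5 of the other retinal factors per comparison by FDR, marker genes as sums, up to 3 nearest genes by pattern, and the targeted genes. Genes and lists were chosen with earlier results of these data known. No sequences are printed, as no sequence of these genes was at hand.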

Additional observations from a re-analysis of the deposited data

Results flagged for a closer look

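Of the retinal factors outside the 9 genes, tfap2b was past the cutoff for the interaction of genotype with tissue, eye against anterior brain. The log2 difference was -4.24 (standard error 0.90, FDR = 0.0314, edgeR quasi-likelihood F-test of the interaction, beside 0.344% of all genes). Its wild-type anterior group lay at the floor of 3 counts, so this call is not taken as a difference between the tissues. The anterior brain counts of tfap2b were 1, 0 and 0 for wild-type libraries, and 12, 3 and 16 for opn4 dko, so that the fitted size depends on the prior count and the FDR cannot be relied on. Its eye counts were 182, 217 and 123 for wild-type libraries, and 418, 253 and 242 for opn4 dko. The filter did not keep tfap2b in the anterior brain, and the same difference between the anterior and the posterior brain was not called (log2 difference 4.32, FDR = 0.173, same test).

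Library values that stood apart were sought with Dixon's ratio in 26 sets of the 6 libraries of a tissue, and 2 were found, where chance gives about 1 in 20. The ratio of the pax6 copies was 58.3 in anterior brain wild-type replicate 3, which holds 3 reads of PAX6 ENSDARG00000045936. For PAX6 ENSDARG00000045936 the posterior brain opn4 dko replicate 1 was lowest, at 30.3 CPM, where the other 5 libraries lay between 34.2 and 36.3.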

How the results depend on the processing

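The number of the 7 rows called kept within 1.5 times its value in every comparison and alternative but the demand for at least 10 counts in every library, which leaves 3 rows to test and called 3 in place of 7 for the eye against either brain part in both genotypes. With each library left out the counts stayed at 0 for genotype and interaction, at 7 for the eye against either brain part, and between 3 and 4 for the brain parts in opn4 dko. The 7 include rx1, rx2 and vsx1, which passed the filter on low counts only through the eye. For these 3 genes an eye call was close to fixed, so the steady count says nothing about them. The replicate block called 0 rows for genotype and interaction and changed no call of the counts above by over 1.5 times. Same-numbered libraries correlated weakly, between -0.016 and 0.042 for the genotypes of a tissue and between 0 and 0.121 for the tissues of a genotype, so that the numbers were not taken as pairs. The same number still gave the highest correlation in 6 of 9 and 15 of 18 cases. According to the paper, eyes and both brain parts were dissected from the same heads. Whether same-numbered pools of a genotype hold the same fish is not stated. The tests between tissues, also those of the copy ratios, treated the libraries as independent. Signs of uncalled genotype log2 fold changes turned under some settings. With the block PAX6 ENSDARG00000103379 had 0.0092 in the anterior brain. Under actb1 scaling, which moved the median of all genes to -0.31 in the eye and -0.34 in the posterior brain, the eye values of PAX6 ENSDARG00000103379, prox1a and isl1 were -0.13, -0.17 and -0.20, and the posterior values of PAX6 ENSDARG00000103379, SIX3 ENSDARG00000058008 and prox1a were -0.33, -0.28 and -0.26. For rx2 in the eye the range with each library left out was -1.03 to -0.0469. Ranges crossed 0 in the eye for rx1 (-0.0425 to 0.54), PAX6 ENSDARG00000045936 (-0.27 to 0.10), SIX3 ENSDARG00000054879 (-0.19 to 0.0704), prox1a (-0.0261 to 0.30) and isl1 (-0.0402 to 0.48). In the anterior brain they did so for PAX6 ENSDARG00000103379 (-0.20 to 0.27), SIX3 ENSDARG00000054879 (-0.0366 to 0.38) and isl1 (-0.35 to 0.0395), and in the posterior brain for PAX6 ENSDARG00000103379 (-0.0361 to 0.19), SIX3 ENSDARG00000058008 (-0.13 to 0.20) and prox1a (-0.10 to 0.41). The log2 difference of the PAX6 ratio between eye and posterior brain ranged from -0.1481 to 0.0366. All 38 tissue log2 fold changes without a group at the floor of 3 counts kept their sign and call. Between the brain parts rx1, rx2 and vsx1 are not among these 38, but they are in the count of 3 to 4 calls above. Library totals limit the precision, and genes under 3 counts are known only as bounds. Intervals cover the spread between pools, and each group had 3.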
